A study of Mus musculus with 6 samples.

Results

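The tight junction genes Ocln, Marveld2, Cldn6, F11r, Lsr, Tjp1, Tjp3, Cgn and Cgnl1 were followed in cultured mouse mammary tumor cells with and without a hairpin against CdGAP. They were chosen with earlier results of these data known. Each of the 9 gene symbols matched 1 row of the 41214 genes in the deposited table. The cells were explants of mammary tumors derived from the mouse mammary epithelial line NMuMG. All of them carried Neu-NT, a constitutively active ErbB2 receptor. They were cultured in DMEM with serum, insulin and the selection drug G418. One group carried a control hairpin (genotype Neu-NT shCON, 3 libraries) and the other was depleted of CdGAP (genotype Neu-NT shCdGAP, 3 libraries). These groups follow the titles and genotype labels, whereas the cell type label names shCTL for all 6 samples. CdGAP, the product of Arhgap31, switches off the small GTPases Rac1 and Cdc42. The study asked about its role with the transcription factor Zeb2 in keeping Cdh1, which encodes E-cadherin, repressed. The labels do not say whether the lines were clones or pools, or whether each library had its own culture. The p-values therefore reflect the spread among these 6 libraries alone, and that spread may be technical.

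Tight junctions seal the space between neighbouring epithelial cells near their apical side and limit the passage of ions and solutes. Claudins form the sealing strands or the ion channels within them, and occludin and tricellulin, which share a MARVEL membrane domain, lie in the strands and at the corners where cells meet. The ZO scaffold proteins and the cingulins tie these membrane proteins to the actin cytoskeleton. Loss of tight junction genes is a known part of the epithelial-mesenchymal transition, in which factors of the Snail and Zeb families repress epithelial genes.

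Total gene-assigned reads ranged from 19176540 to 26824249 per library. Arhgap31 was lower in every shCdGAP library (0.149, 0.826 and 0.748 FPKM in replicates 1, 2 and 3) than in every shCON library (1.19, 1.30 and 1.35 FPKM), but its difference missed the threshold (adjusted p = 0.0836, limma). Replicate 1 of shCdGAP stood apart: on log2(FPKM + 1) its correlation across genes was 0.948 with replicate 2 and 0.938 with replicate 3, against 0.996 between those, and genes are not independent replicates. Of 9 markers of mammary epithelium (summed level 4001 to 6555 FPKM in shCdGAP and 3617 to 5064 in shCON), 4 (Krt8, Krt18, Krt19 and Cdh1) were at 1 FPKM or more in every library, whereas Cldn3 and Cldn7 had 0 reads in all libraries. Of the 6 tested, 2 rose and 1 fell, while 9.92% of all tested genes were called higher and 11.1% lower. Cdh1 rose from 50.7 ± 11.1 to 168 ± 16.1 FPKM (SD, n = 3; adjusted p = 0.00220, limma) and Krt7 from 0.264 ± 0.046 to 0.792 ± 0.269 FPKM (adjusted p = 0.0353), while Epcam fell from at most 0.812 FPKM in shCON to 0 reads in shCdGAP (adjusted p = 0.00232). Every basal, fibroblast and endothelial marker was under 1 FPKM in every library. The 1 gene called among them was the basal marker Krt5. It fell from 0.607 ± 0.124 to 0.0131 ± 0.0114 FPKM (SD, n = 3; adjusted p = 0.00188, limma). Krt5 and Epcam passed the filter on low values through shCON alone, the group where they were higher. The summed adipocyte markers were at 0.196 to 0.636 FPKM in shCdGAP and 1.21 to 1.76 in shCON. Most of this was Cidec, which fell from 1.37 ± 0.277 to 0.437 ± 0.223 FPKM (SD, n = 3; adjusted p = 0.0187, limma). The summed immune markers were at 3.01 to 9.79 FPKM in shCdGAP and 12.8 to 17.7 in shCON. The part of adipocyte and immune markers in the results was not tested. Of the 7 immune markers, 3 were tested. Cd68 was at 2.37 to 8.45 FPKM in shCdGAP and 12.2 to 17.3 in shCON (adjusted p = 0.0465, limma). Itgam went the other way, from 0.0334 ± 0.0193 FPKM in shCON to 0.221 ± 0.0398 in shCdGAP (SD, n = 3; adjusted p = 0.0160, limma). Itgam passed the filter through shCdGAP alone, the group where it was higher. Csf1r, at 0.383 ± 0.149 FPKM in shCON and 0.786 ± 0.392 in shCdGAP, was not called (adjusted p = 0.229, limma). Ptprc stood at no more than 0.0197 FPKM. In bulk RNA, a smaller share of cells with a transcript and less transcript per cell cannot be told apart.

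The stretches around the start sites of 4 of the 5 members that changed in the comparison that follows are shown, because Zeb and Snail factors bind the E-box CACCTG. These stretches include the gene with most matches and 1 with none. They come from RefSeq on GRCm38.p6, the same assembly as mm10, run 5′ to 3′ along the gene from 250 bases before a start site to 50 bases after it, and carry matches to CACCTG on either strand (CACCTG or CAGGTG) in capitals.
Ocln, chr13:100552449-100552748, minus strand: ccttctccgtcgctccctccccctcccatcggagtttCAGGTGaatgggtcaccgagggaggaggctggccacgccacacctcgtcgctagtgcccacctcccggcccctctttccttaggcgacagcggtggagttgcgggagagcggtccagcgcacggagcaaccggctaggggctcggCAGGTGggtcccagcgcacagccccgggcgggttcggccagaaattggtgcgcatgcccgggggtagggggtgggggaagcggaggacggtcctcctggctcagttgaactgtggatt
Lsr, chr7:30973420-30973719, minus strand: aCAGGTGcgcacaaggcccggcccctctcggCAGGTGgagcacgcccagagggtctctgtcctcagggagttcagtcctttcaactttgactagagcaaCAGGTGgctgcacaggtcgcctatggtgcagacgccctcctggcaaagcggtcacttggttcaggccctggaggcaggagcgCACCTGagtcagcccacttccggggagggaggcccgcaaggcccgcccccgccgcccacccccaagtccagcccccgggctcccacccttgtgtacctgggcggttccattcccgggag
Cgn, chr3:94786433-94786732, minus strand: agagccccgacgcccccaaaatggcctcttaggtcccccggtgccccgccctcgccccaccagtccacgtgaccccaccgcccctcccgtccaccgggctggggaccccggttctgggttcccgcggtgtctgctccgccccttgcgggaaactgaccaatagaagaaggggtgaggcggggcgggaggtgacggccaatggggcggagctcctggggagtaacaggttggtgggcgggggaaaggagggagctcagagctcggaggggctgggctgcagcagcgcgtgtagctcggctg
Cldn6, chr17:23679115-23679414, plus strand: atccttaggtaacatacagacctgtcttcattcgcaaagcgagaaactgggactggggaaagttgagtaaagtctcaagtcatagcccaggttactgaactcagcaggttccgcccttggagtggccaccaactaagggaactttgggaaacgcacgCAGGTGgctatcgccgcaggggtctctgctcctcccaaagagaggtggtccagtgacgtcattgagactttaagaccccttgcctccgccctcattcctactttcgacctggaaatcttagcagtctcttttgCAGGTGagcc

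Lsr held 4 matches, Ocln and Cldn6 held 2 each, and Cgn held 0. Tjp3, the other member that changed, held 1 match in each of its 2 windows, and the Ocln window not shown held 1, which also lies in the one shown. All 9 members had at least 1 window of 300 bases in the table, 12 windows in all, of which the pairs for Ocln and for Marveld2 overlap and share a match. Of all 32851 windows, 20.2% held at least 1 match, 2.88% at least 2 and 0.0548% at least 4. Of the members' 12 windows, 9 held a match. A gene with 2 windows can match in either, so the counts of genes that follow are not like these shares of windows. The 6 members with a match were Ocln, Marveld2, Cldn6, F11r, Lsr and Tjp3, and those without were Cgn, Tjp1 and Cgnl1. Of the 5 members that changed, 4 held a match (Ocln, Tjp3, Lsr and Cldn6) and Cgn held none. Of the 3 tested members that did not pass, F11r held a match and Tjp1 and Cgnl1 held none. The single Tjp1 window (chr7:65371195-65371494) surrounds a start site inside the gene. The 5′ end of the Tjp1 span given below was not searched. The palindrome AACCGGTT, the site of grainyhead-like factors, does not overlap the E-box letters and was in none of the members' windows, against 0.146% of all windows. A match is a match of letters and says nothing about binding.

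Of the 9 members, 8 passed the filter on low values and were tested, and 4 of them rose (Ocln, Tjp3, Cgn and Lsr), 1 fell (Cldn6) and 3 did not pass (Tjp1, Cgnl1 and F11r). Across all 13483 tested genes, limma on log2(FPKM + 1) with Benjamini-Hochberg adjustment called 21.0%, with 9.92% higher and 11.1% lower in shCdGAP. The median log2 fold change was 0.58 over the 8 tested members and -0.01 over all tested genes. For 6 of the 8 the libraries of one group all lay on one side of the other group, as they did for 44.1% of all tested genes. The members were chosen with earlier results known, so these shares describe them and do not test them as a set. The authors' deposited DESeq2 comparison likewise called 4 members higher and 1 lower, the same 5 genes, and called 23.8% of the genes for which it holds an adjusted p. Without shCdGAP replicate 1, limma called 6 of the 8 members and 39.9% of all tested genes, and without both libraries numbered 1 it called 6 members and 48.3%.

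**Figure D1:**
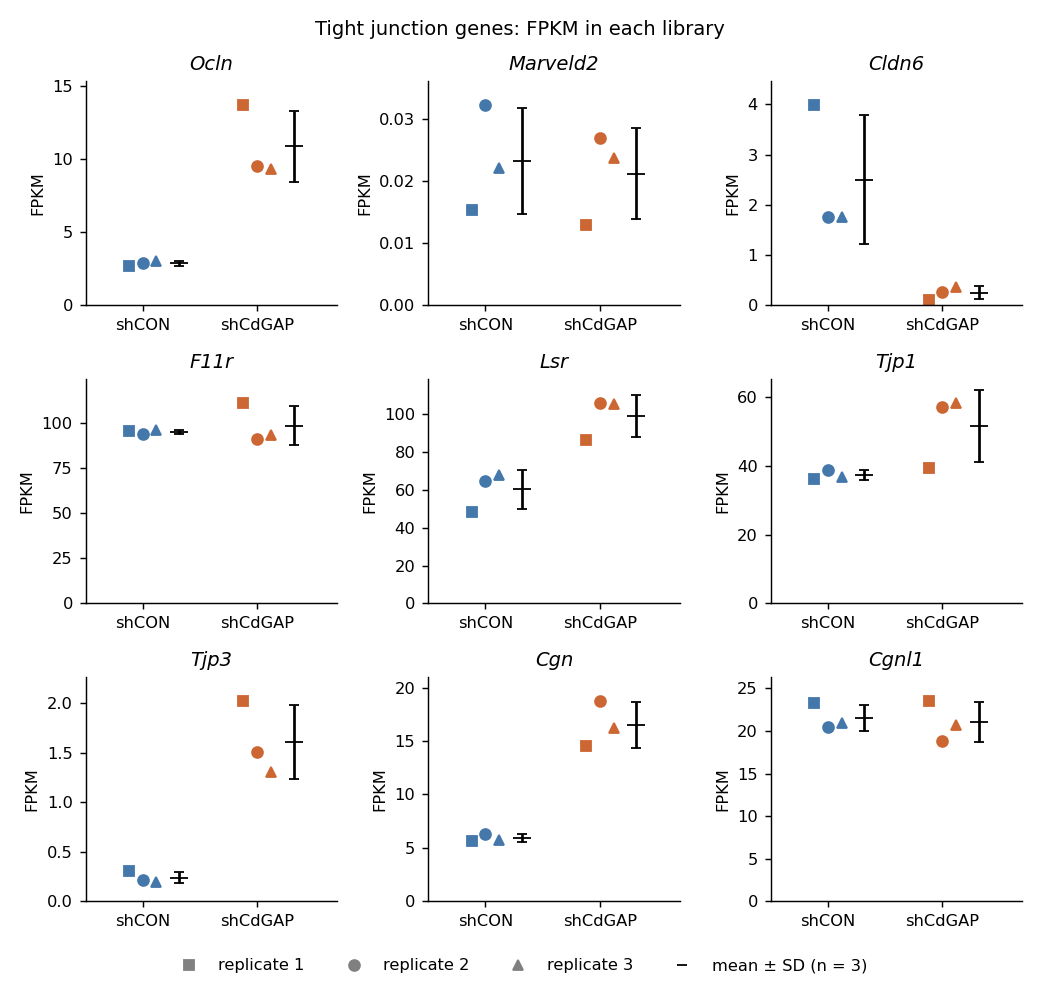
FPKM of the 9 members (vertical axis, linear from 0, a scale of its own for each gene) in the shCON and shCdGAP libraries; symbols mark the replicate number and the bar is the mean ± SD of 3 libraries. Ocln, Tjp3, Cgn and Lsr are higher in all shCdGAP libraries than in any shCON library, Cldn6 is lower, and Tjp1 in shCdGAP replicate 1 lies close to the control level.

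Among the membrane proteins of the strands, occludin rose and claudin-6 fell. Ocln (ENSMUSG00000021638, chromosome 13, 100496507 to 100552718 of mm10, minus strand) measured 13.7, 9.53 and 9.34 FPKM in replicates 1, 2 and 3 of shCdGAP and at 2.67, 2.90 and 3.04 FPKM in shCON. Every shCdGAP library was above every shCON library, and replicate 1 of shCdGAP was the highest of all. The means were 10.8 ± 2.45 and 2.87 ± 0.184 FPKM (SD, n = 3), a 3.78-fold rise (log2 fold change 1.60 ± 0.16 SE, limma adjusted p = 0.00166). Within the libraries that share a replicate number, the fold was 5.12, 3.28 and 3.08 for numbers 1, 2 and 3. Among genes averaging 3 FPKM or more, the median gene of chromosome 13 was itself 0.28 higher, on the same log2 scale, than the median of all such genes, the level used for every chromosome median given here. Within 300000 bases of the stretch from Ocln to Marveld2, 15 genes were tested, and Ocln was the 1 gene called higher. Of all tested genes, 9.92% were called higher.

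Marveld2, encoding tricellulin (ENSMUSG00000021636), lies 43238 bases beyond Ocln on the same strand, at chromosome 13, 100595957 to 100616971. It had 1, 2 and 2 reads in shCdGAP and 1, 3 and 2 reads in shCON, at 0.0129 to 0.0323 FPKM. These counts are at or under a floor of 3 reads, so the gene was not tested, and no difference could be detected at this depth. Its neighbour Ocln had 218 to 1320 reads in the same libraries.

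Lsr, encoding the lipolysis-stimulated lipoprotein receptor, also called angulin-1, recruits tricellulin to the corners between cells (ENSMUSG00000001247, chromosome 7, 30957770 to 30973464, minus strand). It stood at 86.0, 106 and 105 FPKM in shCdGAP and at 48.4, 64.4 and 67.6 FPKM in shCON. The groups did not overlap, although replicate 1 was the lowest library in both. The means of 98.9 ± 11.2 and 60.1 ± 10.3 FPKM (SD, n = 3) gave a 1.65-fold rise (log2 fold change 0.72 ± 0.16 SE, limma adjusted p = 0.0287). This call was lost without shCdGAP replicate 2 (adjusted p = 0.102) or 3 (0.0762) and without shCON replicate 1 (0.0623), 2 (0.0836) or 3 (0.0627), limma in each case. The rise was 1.78-fold, 1.64-fold and 1.55-fold between libraries of the same number. The authors' deposited table also called Lsr higher (log2 fold change 0.70, adjusted p = 0.00272, DESeq2). Its exons overlap Gm4673 and Gm17077 on the other strand, which held at most 40 reads in any library, against 2024 to 5660 reads for Lsr.

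Claudin-6, a claudin known from embryonic epithelium, went the other way. Cldn6 (ENSMUSG00000023906, chromosome 17, 23679249 to 23682446, plus strand) stood at 0.116, 0.272 and 0.374 FPKM in shCdGAP, from 4, 9 and 14 reads. In shCON it stood at 3.99, 1.76 and 1.76 FPKM, from 116, 73 and 71 reads. The shCON libraries were enough for Cldn6 to pass the filter on low values, and the shCdGAP libraries alone were not. All shCdGAP libraries were below all shCON libraries, and shCON replicate 1 was high within its own group. The mean FPKM was 9.85 times as high in shCON (2.50 ± 1.29) as in shCdGAP (0.254 ± 0.130; SD, n = 3). Between libraries of the same number, shCdGAP stood at 0.0291, 0.154 and 0.212 of the shCON level for numbers 1, 2 and 3, so the libraries numbered 1 were the farthest apart. The fitted log2 fold change of -1.43 ± 0.25 (SE, limma adjusted p = 0.0117) is shrunk by the added 1 FPKM: it was -2.85 with 0.1 FPKM added, -3.20 with limma-voom on the recovered reads and -2.82 in the authors' deposited table. The call held without each single library, at adjusted p of 0.00589 to 0.0484 (limma).

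Cldn9, a close paralogue of Cldn6 from the list of other claudins, lies on the minus strand with its end 137 bases past the end of Cldn6, at chromosome 17, 23682584 to 23684026, and fell as well. It was at 0.335, 0.222 and 0.365 FPKM in shCdGAP and at 3.57, 1.85 and 1.80 FPKM in shCON, with replicate 1 again the highest shCON library. The fall was -1.34 ± 0.20 (SE) on the log2 scale (limma adjusted p = 0.00715). Of 13 genes tested within 300000 bases of this pair, 4 were higher and 2 lower, the 2 being Cldn6 and Cldn9. Of all tested genes, 9.92% were called higher and 11.1% lower. The median gene of chromosome 17 was 0.36 above that of all genes at this level. How reads that match both paralogues were counted is not given in the sources used here.

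F11r, encoding junctional adhesion molecule A, an immunoglobulin-like adhesion protein that recruits polarity proteins to new contacts (ENSMUSG00000038235, chromosome 1, 171437535 to 171464603, plus strand), did not pass the test. It stood at 111, 91.1 and 93.1 FPKM in shCdGAP and at 95.4, 93.7 and 95.8 FPKM in shCON. The shCON values lie within the shCdGAP range, and the shCdGAP library that exceeds all others is replicate 1. The log2 fold change was 0.04 with a 95% interval of -0.22 to 0.31 (adjusted p = 0.809, limma), and it was -0.04 without shCdGAP replicate 1.

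The plaque proteins of the ZO family did not move as one. Tjp1, encoding ZO-1, the main scaffold that binds claudins and occludin (ENSMUSG00000030516, chromosome 7, 65296165 to 65527781, minus strand), stood at 39.5, 57.0 and 58.3 FPKM in shCdGAP and at 36.3, 39.0 and 36.7 FPKM in shCON. Replicates 2 and 3 of shCdGAP were well above the controls, and replicate 1 exceeded the highest control by little. The log2 fold change of 0.44 (SE 0.17, 95% interval 0.03 to 0.84) missed the threshold after adjustment (adjusted p = 0.121, limma), as it did in the authors' deposited table (adjusted p = 0.0815, DESeq2). Without shCdGAP replicate 1 it was 0.62 (adjusted p = 0.00122, limma) and passed, as it did without both libraries numbered 1 (0.60, adjusted p = 7.32e-04).

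Tjp3, encoding ZO-3, a scaffold restricted mostly to epithelia (ENSMUSG00000034917, chromosome 10, 81273207 to 81291581, minus strand), had the largest ratio of means among the members that rose. It stood at 2.02, 1.51 and 1.30 FPKM in shCdGAP and at 0.308, 0.216 and 0.198 FPKM in shCON. The reads behind these were 140, 100 and 98 against 18, 18 and 16. The groups were far apart relative to the spread within either. The means of 1.61 ± 0.371 and 0.241 ± 0.0591 FPKM (SD, n = 3) differed 6.69-fold (log2 fold change 1.07 ± 0.12 SE, limma adjusted p = 0.00229). As with Cldn6, the added 1 FPKM shrinks this value, which was 2.32 with 0.1 FPKM added, 2.73 with limma-voom and 2.60 in the authors' deposited table. Between libraries of the same number the ratio was 6.57, 6.96 and 6.60. The median gene of chromosome 10 was 0.21 below that of all genes at this level. The exons of Tjp3 overlap those of Apba3 on the other strand, which had 795 to 1181 reads per library and was not called (log2 fold change -0.23, adjusted p = 0.231, limma), and the handling of strand is not given in the sources used here.

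Cingulin and paracingulin, coiled-coil proteins that link ZO proteins to actomyosin, also had 1 member that rose and 1 that did not pass. Cgn, encoding cingulin (ENSMUSG00000068876, chromosome 3, 94760069 to 94786492, minus strand), stood at 14.5, 18.7 and 16.2 FPKM in shCdGAP and at 5.64, 6.34 and 5.73 FPKM in shCON. The groups were clearly separate and shCdGAP replicate 1 was the lowest of its group. The means were 16.5 ± 2.14 and 5.90 ± 0.380 FPKM (SD, n = 3), a 2.79-fold rise (log2 fold change 1.33 ± 0.12 SE, limma adjusted p = 0.00109). Chromosome 3 as a whole was level, with its median gene at -0.01 relative to all.

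Cgnl1, encoding paracingulin (ENSMUSG00000032232, chromosome 9, 71626509 to 71771602, minus strand), stood at 23.5, 18.9 and 20.7 FPKM in shCdGAP and at 23.2, 20.5 and 20.9 FPKM in shCON. The groups overlapped throughout. The log2 fold change was -0.04 with a 95% interval of -0.32 to 0.24 (adjusted p = 0.860, limma). An interval of this width does not show that the level was the same, but its bounds are far from the change of Cgn.

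**Figure D2:**
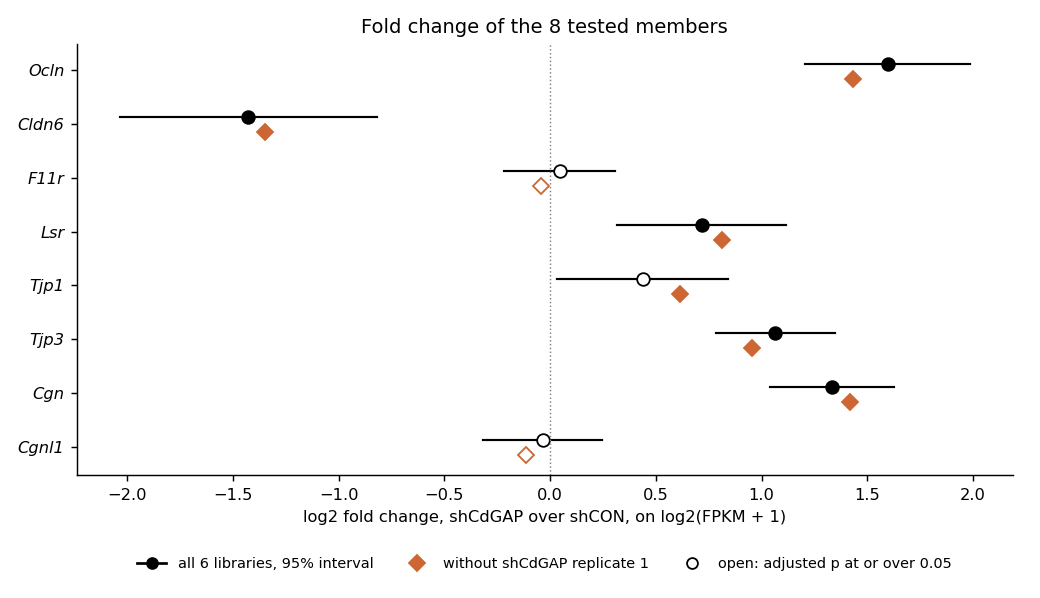
Log2 fold change of shCdGAP over shCON on log2(FPKM + 1) for the 8 tested members, as black circles with the 95% interval for all 6 libraries and as orange diamonds without shCdGAP replicate 1; filled symbols have an adjusted p under 0.05 (limma). Tjp1 is open at 0.44 with all libraries and filled at 0.62 without that library, while Ocln, Cldn6, Lsr, Tjp3 and Cgn are filled in both.

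Since FPKM is scaled by gene length, levels can be set side by side between genes. The ratio of Cgn to Cgnl1, on the FPKM scale, was 0.617, 0.994 and 0.780 in shCdGAP and 0.242, 0.309 and 0.275 in shCON, so cingulin came close to the level of paracingulin in shCdGAP replicate 2 and stayed under it in all 6 libraries. The mean log2 ratio was 1.51 higher in shCdGAP. The ratio of Tjp3 to Tjp1 was 0.0512, 0.0264 and 0.0224 in shCdGAP and 0.00848, 0.00555 and 0.00539 in shCON, with a mean log2 ratio 2.30 higher in shCdGAP. For both ratios, computed after the values of the members were known, the groups did not overlap, and the 2-sided exact permutation p was 0.1 (adjusted over the 2 ratios 0.1), the smallest that 3 against 3 libraries allow.

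The order of levels was nearly fixed. In shCON, F11r was the highest member in every library, followed by Lsr, Tjp1, Cgnl1 and Cgn, then Ocln and Cldn6, then Tjp3, with Marveld2 last. Ocln at 2.87 ± 0.184 and Cldn6 at 2.50 ± 1.29 FPKM (SD, n = 3) did not differ beyond their spread in shCON. In shCdGAP, Lsr at 98.9 ± 11.2 and F11r at 98.4 ± 10.9 FPKM could not be ordered, Lsr being above F11r in replicates 2 and 3 and below it in replicate 1. Cldn6 dropped behind Tjp3 in all 3 shCdGAP libraries. The summed level of the 9 members was 290, 303 and 304 FPKM in shCdGAP and 216, 229 and 232 FPKM in shCON.

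Placed within their families, the members held very different shares. Claudin RNA consisted mostly of Cldn2, which encodes a pore-forming claudin of leaky epithelia, with 91.3% to 93.8% of summed claudin FPKM in shCdGAP and 87.2% to 90.8% in shCON. Cldn12, the next, held 6.0% to 8.31% and 7.52% to 9.11%. Both are named for their level, after their values were seen, and neither passed the test (adjusted p = 0.264 and 0.513, limma). Cldn6 made up 0.0316% to 0.134% in shCdGAP and 0.636% to 1.65% in shCON. Cgn held 38.2% to 49.9% of the cingulin pair in shCdGAP and 19.5% to 23.6% in shCON. F11r gave at least 99.9% of the RNA of the 3 junctional adhesion molecule genes F11r, Jam2 and Jam3 in each library, and Ocln at least 98.2% of that of the 3 MARVEL genes Ocln, Marveld2 and Marveld3.

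**Figure D3:**
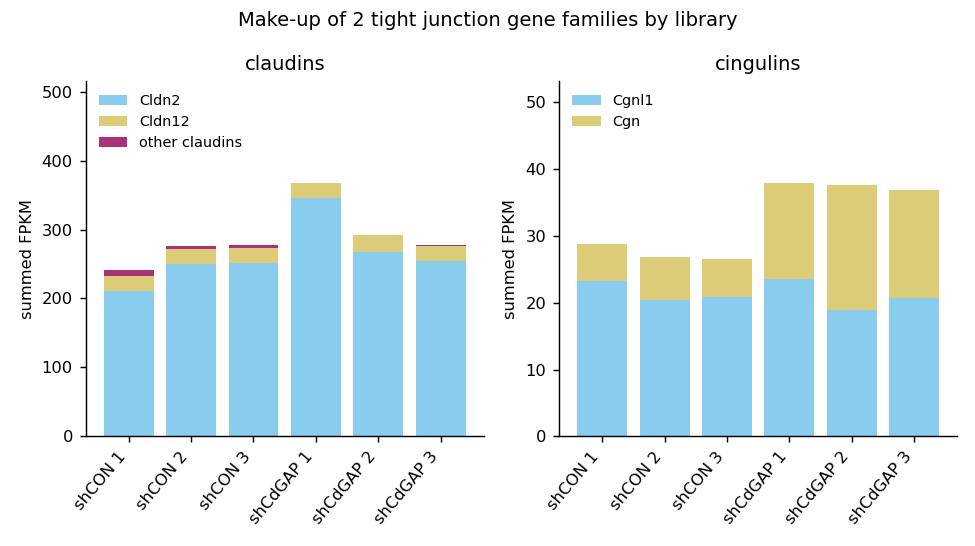
Summed FPKM (vertical axis, linear from 0) of the claudins and the cingulins in each of the 6 libraries, with colours for single genes. Cldn2 fills at least 87.2% of each claudin bar, and the part of Cgn grows from 19.5% to 23.6% in shCON to 38.2% to 49.9% in shCdGAP.

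Beyond the 9 members, 82 other genes of tight junctions and their control were listed in 6 groups, of which 5 are described by group. They too were chosen with earlier results known, so their shares are a description. Of the 82 genes, 81 were in the table and 50 were tested, with a median log2 fold change of 0.08. Of the 50, 10 were higher and 8 lower in shCdGAP (36% called, against 21.0% of all tested genes). The count of called genes fell to 9 when replicate 2 of shCdGAP was left out, or replicate 2 or 3 of shCON, and it rose to 30 without shCdGAP replicate 1. Of these 18 genes, 9 (Cldn9, Crb3, Vapa, Inadl, Arhgef18, Ehf, Snai1, Grhl2 and Tfcp2l1) were called in the fit with all libraries and under every one of the 13 alternatives. Grhl2 passed the filter on low values through shCON alone. Cldn9, Crb3 and Ehf also needed the group where they were higher in order to pass.

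Of 22 other claudins in the table, 10 had 0 reads in all 6 libraries, among them Cldn3 and Cldn7 of mammary epithelium, and 5 were tested, with 0 higher and 2 lower. Beside Cldn9, Cldn18 fell from 0.317 ± 0.0506 to 0.0988 ± 0.0777 FPKM (SD, n = 3; adjusted p = 0.0427, limma), a call lost without any single library other than shCdGAP replicate 1 (adjusted p = 0.0559 to 0.151) with the replicate number as a block (0.0584), with 0.1 FPKM added (0.0623), with no filter (0.0813) and with limma-voom (0.104). Of these 5, none was called higher by limma or by limma-voom, and 2 of the 5, the same pair, had an unadjusted p under 0.05. Of all 13483 tested genes, limma called 9.92% higher and 11.1% lower, and 4661 had an unadjusted p under 0.05. With 5 genes tested, these counts do not set the claudins apart from all genes. The authors' deposited table did not call Cldn18 (adjusted p = 0.0671, DESeq2). It called Cldn23 lower (log2 fold change -2.47, adjusted p = 7.42e-04, DESeq2). Cldn23, named after its values were seen, was left out by the filter used here. It had 0, 1 and 2 reads in shCdGAP and 16, 14 and 10 in shCON. Of 13 other junctional membrane proteins, 7 were tested, with 1 higher and 1 lower (28.6% called, against 21.0% of all tested genes). Crb3, the small Crumbs protein of the apical membrane, stood at 4.78, 3.90 and 2.99 FPKM in shCdGAP and at 0.166, 0.535 and 0.430 FPKM in shCON. That separation corresponds to 1.82 ± 0.18 (SE) on the log2 scale (limma adjusted p = 0.00150). Clmp, an adhesion molecule of the immunoglobulin family, had 1, 0 and 0 reads in shCdGAP and 13, 21 and 23 reads in shCON (adjusted p = 0.0128, limma), a call lost without shCdGAP replicate 2 (0.0585) or shCON replicate 2 (0.0607) or 3 (0.0608). Clmp passed the filter on low values through shCON alone, the group where it was higher. With no filter its adjusted p was 0.00745 (limma).

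All 18 plaque scaffolds and adaptors were tested, with 5 higher, 2 lower and 11 that did not pass (38.9% called, against 21.0% of all tested genes). Inadl, encoding PATJ, which joins the Crumbs complex to ZO-3 and claudins, rose from 0.692 ± 0.113 to 3.02 ± 0.760 FPKM (SD, n = 3; log2 fold change 1.23, adjusted p = 0.00366, limma). Mpdz, encoding the related scaffold MUPP1, fell to 1.74 ± 0.323 from 3.13 ± 0.269 FPKM (-0.60 on the log2 scale, limma adjusted p = 0.0217). Vapa, a membrane protein of the endoplasmic reticulum that binds occludin, rose to 107 ± 10.5 from 55.5 ± 3.59 FPKM (0.94 on the log2 scale, limma adjusted p = 0.00302). Amotl2, an angiomotin, and Mllt4, encoding afadin, rose with log2 fold changes of 0.67 and 0.43 (adjusted p = 0.0186 and 0.0259). The calls on Mpdz, Amotl2 and Mllt4 were lost without shCdGAP replicate 2 (adjusted p = 0.0699, 0.0702 and 0.101), shCON replicate 2 (0.0867, 0.0786 and 0.127) or shCON replicate 3 (0.0736, 0.0765 and 0.123). Without shCON replicate 1, Mpdz (0.0737) and Amotl2 (0.0716) lost theirs, and so did Mllt4 without shCdGAP replicate 3 (0.0537) and Mpdz with the replicate number as a block (0.0598).

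Of 17 transcription factors known to act on tight junction genes, 12 were tested, with 2 higher and 3 lower (41.7% called, against 21.0% of all tested genes). The epithelial ETS factor Ehf rose from 0.0545 ± 0.0364 to 12.6 ± 3.98 FPKM (SD, n = 3). Its log2 fold change was 3.65 with 1 FPKM added (adjusted p = 2.66e-04, limma), 6.34 with 0.1 FPKM added and 7.02 in the authors' deposited table. Tfcp2l1, a grainyhead-related factor, rose from 1.09 ± 0.166 to 3.07 ± 0.509 FPKM (SD, n = 3; log2 fold change 0.96, adjusted p = 0.00500). The repressors Snai1 (-0.93, adjusted p = 0.00179) and Zeb2 (-0.53, adjusted p = 0.0330) fell, although Zeb2 lost its call without shCdGAP replicate 2 (0.116) or 3 (0.0801), shCON replicate 2 (0.0677) or 3 (0.0842), and with no filter on low values (0.0589). Snai2 (-0.84, adjusted p = 0.0887, limma) and Zeb1 (-0.03, adjusted p = 0.850), of the same families, were not called. Both are named after their values were seen. Grhl2, an activator of claudin and cadherin genes, fell as well, from 59, 50 and 60 reads in shCON to 0, 2 and 1 reads in shCdGAP (adjusted p = 0.00464, limma). Grhl2 was already under 1 FPKM in every shCON library, and it passed the filter on low values through shCON alone. Of 4 membrane proteases and inhibitors that act on junction proteins, 1 was tested. Spint2, an inhibitor of matriptase and prostasin, rose from 85.6 ± 6.08 to 137 ± 23.2 FPKM (adjusted p = 0.0252, limma), and its call was lost without shCdGAP replicate 2 (0.0562), without shCON replicate 1 (0.0885), 2 (0.0862) or 3 (0.0862), and with the replicate number as a block (0.0636).

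**Figure D4:**
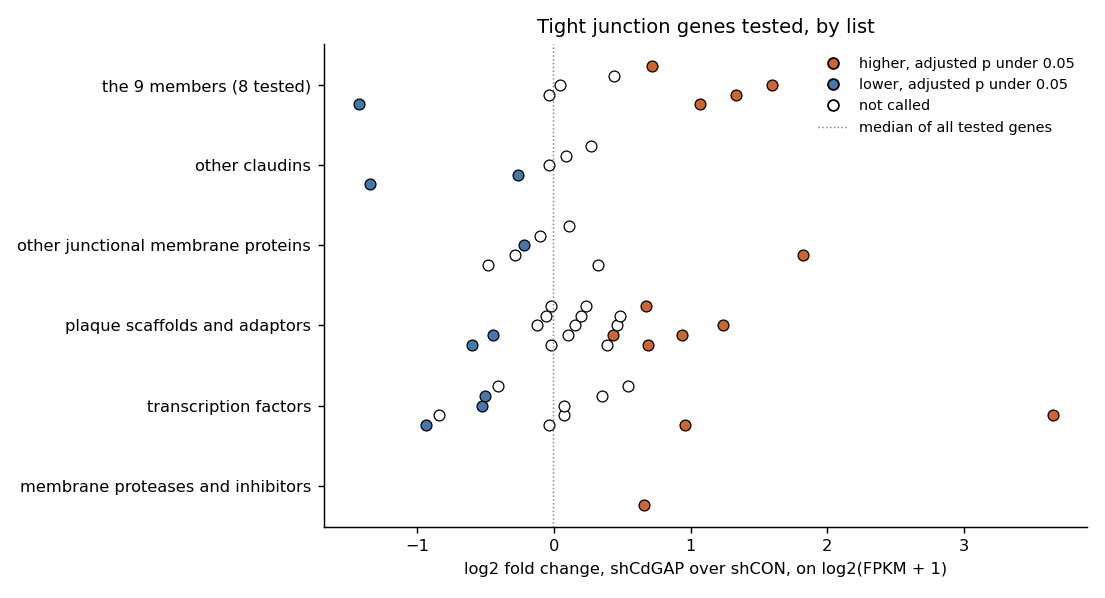
Log2 fold change of shCdGAP over shCON on log2(FPKM + 1) for each tested gene (1 circle a gene, spread vertically for legibility) of the members and of 5 other lists; orange and blue mark genes called higher and lower (adjusted p under 0.05, limma) and the dotted line the median of all tested genes. The members hold 4 orange circles and 1 blue, the other claudins 2 blue and no orange, and the plaque scaffolds 5 orange and 2 blue. Of all tested genes, 9.92% were called higher and 11.1% lower.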

How the data were processed

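FPKM values of 41214 genes in the 6 libraries come from 1 table that the authors deposited. Per the file headers it also holds their DESeq2 comparison: mean signal per gene, log2 fold change and its error, a score for the test, and p-values. Per the submitters' processing notes, processing involved DESeq2, featureCounts, TopHat2 2.0.13 and Trimmomatic on mm10, with no roles given. Each FPKM, times the ratio of the gene's mean signal to its mean FPKM and times a size factor fitted per library, gave whole reads for 100% of values above 0 (tolerance 1e-06 of the value, or of 1 read).

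A gene was tested if 3 or more libraries held 10 or more reads after scaling to median depth, and all libraries together 15 or more (13483 genes). A gene low in 1 group could thus pass through the other group alone, as Clmp, Grhl2, Epcam, Krt5 and Itgam did. The p-values of such genes are given as a description. The test was limma 3.58.1 in R 4.3.3 on log2(FPKM + 1), with trend and robust settings, 2-sided, Benjamini-Hochberg adjusted over all tested genes at 0.05. This scale understates changes of low genes. Intervals are unadjusted. The steps were tested on simulated data with the same dispersion for all genes and no library that stood apart. That simulation does not cover a library like shCdGAP replicate 1. Positions are from GENCODE M21 on the same build. Other steps ran in Python 3.11.15 with pandas 2.3.3, numpy 2.4.6 and matplotlib 3.10.9.

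The members and lists were chosen with earlier results of these data known. Named genes are all members, up to 5 called genes per list with the smallest p, and for each called member the 3 genes most like it; other names are marked. A few of these genes, and 1 list, are not reported here. After subtracting group means, libraries with the same number correlated across genes (0.43, 0.39 and 0.34), which met the rule for pairing, but shCdGAP replicate 2 with shCON replicate 3 (0.35) and shCdGAP replicate 3 with shCON replicate 2 (0.27) did too, so numbers 2 and 3 are not separated. The test has no block, and the block is an alternative. That pairing comes from the data, not the labels. Alternatives were 2 other scalings, no filter, 0.1 FPKM added, limma-voom, the replicate number as a block, and leaving out libraries.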

Additional observations from a re-analysis of the deposited data

How the results depend on the processing

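The 8 tested members had 13 alternatives each, 104 values, of which 97 kept their side of the threshold, 5 lost a call and 2 gained one. The losses were all of Lsr and the gains of Tjp1. In 5 of the 97 values the sign of an uncalled gene (Cgnl1 or F11r) differed. Without single libraries, log2 fold changes were 0.57 to 0.81 for Lsr and 0.34 to 0.62 for Tjp1, and 4 to 6 members were called. Over the same fits 9 to 30 other tight junction genes were called, and 1237 to 5373 of all genes, against 2838 with all libraries. The highest count came without shCdGAP replicate 1, and the others past 1.5 times were 1476 without shCdGAP replicate 2 and 1724, 1237 and 1332 without shCON replicates 1, 2 and 3. Without both libraries numbered 1, Tjp1 was at 0.60 and called, 35 other tight junction genes were called, and 6506 genes in all. With the replicate number as a block, 2458 genes, 5 members and 16 other tight junction genes were called, and the call of no member changed. A low depth limits Marveld2, Cldn6 and Tjp3 most, which had at most 3, 116 and 140 reads in a library.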

Other observations

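Ccdc125, a coiled-coil gene on the Marveld2 side of Ocln (chromosome 13, 100669717 to 100697240), fell from 3.15 ± 0.586 to 0.169 ± 0.0709 FPKM (SD, n = 3; log2 fold change -1.82, adjusted p = 4.53e-04, limma). It is named after its value was seen. Within 300000 bases of the stretch from Ocln to Marveld2, 15 genes were tested. Ccdc125 was the 1 gene called lower and Ocln the 1 called higher, while 21.0% of all tested genes were called in either direction. Rad17, which lies between Marveld2 and Ccdc125, stood at 12.4 ± 0.852 and 11.1 ± 0.550 FPKM and was not called (adjusted p = 0.350, limma).

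The genes whose levels followed a called member most closely over the 6 libraries, by Pearson r on log2(FPKM + 1) among genes averaging 5 FPKM or more, are given as a description. All 6 points share 2 groups and 1 library that stands apart, and r was at least 0.95 for 155 to 493 genes per member. For Ocln they were Fam20a, Igfbp7 and Carkd (r = 0.999 or more). For Tjp3 they were Gtf2i, Aktip and Slc40a1, for Cgn Rbm6, Mat2b and Eml4, for Lsr Sorbs2 and Arpp19, and for Cldn6 Pla2g4a, Cdr2l and Pgm1, each with r of 0.994 or more.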
